A study of Mus musculus with 2 samples.

Results

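The regions described here are Suz12 peaks that lie close to more than 1 gene at once. Members were chosen by the positions and widths of the called peaks: a peak was a member when its edges came within 2.5 kb of an end of 2 or more different protein-coding genes and its width was 1100 to 5000 bp. Of the 3373 peaks in the list, 312 met the gene rule, and 22 of these were narrower and 29 wider than the limits. The remaining 261 peaks are the members, which is 7.74% of all peaks (exact 95% binomial interval 6.86 to 8.69, counting error only). They make up 12.9% of the 2028 peaks of the same width that lie at 1 or more genes. There were 239 members at exactly 2 genes and 22 at 3 genes, and together they touched 506 of 21627 protein-coding genes.

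The peaks come from 1 chromatin immunoprecipitation library of E14 wild-type mouse embryonic stem cells, an established line, cultured in serum conditions. All-trans-retinoic acid at 1 µM had been given for 72 h, with LIF, the cytokine that keeps such cells undifferentiated, left out, and the antibody was anti-Suz12 (D39F6 XP). The series also holds a library of Suz12[-/-] cells at 0 h, made with the same antibody, which was not analysed here. With 1 library there is no replicate error and no test, signal too low for the authors' threshold goes unseen, and a list of peaks cannot check the cell type. Every value below therefore describes this library, and positions, widths and scores are those that chose the members or come from the same peak call.

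Suz12 belongs to the core of PRC2, the Polycomb enzyme complex that methylates lysine 27 of histone H3. In embryonic stem cells PRC2 is known to occupy CpG islands, stretches rich in CG dinucleotides that surround many gene starts, above all at silent developmental genes. The series asks, by its title, whether PRC2 comes to such islands when genes fall silent. Mammalian genes often lie close together. A neighbouring pair can face each other with their starts (head-to-head), follow each other on 1 strand (tandem), or face each other with their far ends (tail-to-tail), so a single bound stretch can lie beside the starts of both genes, of 1 gene or of neither. Below, a listed start is one for which the RefSeq table gives a promoter window, and the outer start is the start-side end of the gene's whole annotated span. Some spans reach beyond every listed start, so the 2 can differ by many kilobases. Of 152 gene placements with the outer start inside the peak, 20 had no listed start inside, and at 20 others a listed start was inside although the outer start was not. Arrangements and gaps follow the spans.

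The sequences below show starts at a few members, chosen to illustrate patterns described further on. Each is the RefSeq promoter window of build GRCm38, from 250 bases before to 50 bases after a start, written from 5′ to 3′ on the gene's own strand. Capitals mark CG dinucleotides, the only motif searched, which reads the same on both strands. At least 1 CG stands in 95.5% of all promoter windows, so the count and not the presence is informative. Trp73 and Wrap73 on chromosome 4 and Lyzl4 and Vipr1 on chromosome 9 are head-to-head pairs with both starts under 1 peak.
Trp73: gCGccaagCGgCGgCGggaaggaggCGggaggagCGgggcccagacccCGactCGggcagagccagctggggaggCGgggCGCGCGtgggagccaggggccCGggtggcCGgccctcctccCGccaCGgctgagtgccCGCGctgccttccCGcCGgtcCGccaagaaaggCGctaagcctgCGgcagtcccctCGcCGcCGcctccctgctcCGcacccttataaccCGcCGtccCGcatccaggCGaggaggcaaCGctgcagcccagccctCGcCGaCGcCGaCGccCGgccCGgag
Wrap73: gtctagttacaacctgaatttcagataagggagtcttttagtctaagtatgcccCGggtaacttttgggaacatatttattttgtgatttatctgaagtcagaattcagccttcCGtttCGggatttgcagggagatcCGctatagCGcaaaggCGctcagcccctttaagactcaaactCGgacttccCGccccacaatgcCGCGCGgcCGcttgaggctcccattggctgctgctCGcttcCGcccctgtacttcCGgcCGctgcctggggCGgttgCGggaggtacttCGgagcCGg
Lyzl4: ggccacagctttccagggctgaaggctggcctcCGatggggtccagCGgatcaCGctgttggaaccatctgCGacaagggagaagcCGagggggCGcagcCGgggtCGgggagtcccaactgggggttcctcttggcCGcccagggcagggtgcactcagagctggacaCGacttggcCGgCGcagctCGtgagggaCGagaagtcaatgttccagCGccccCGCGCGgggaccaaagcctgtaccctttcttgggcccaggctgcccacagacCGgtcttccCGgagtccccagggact
Vipr1: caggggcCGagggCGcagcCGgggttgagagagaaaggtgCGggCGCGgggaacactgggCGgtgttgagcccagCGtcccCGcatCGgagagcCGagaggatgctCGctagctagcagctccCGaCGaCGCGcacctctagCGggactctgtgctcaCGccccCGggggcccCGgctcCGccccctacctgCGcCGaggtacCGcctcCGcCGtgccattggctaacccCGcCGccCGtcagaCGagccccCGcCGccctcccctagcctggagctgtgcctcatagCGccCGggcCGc
The Trp73 window (chr4:154139826-154140125, minus strand) holds 39 CG and the Wrap73 window (chr4:154142122-154142421, plus strand) 20. The Lyzl4 window (chr9:121642072-121642371, minus strand) holds 20 CG and the Vipr1 window (chr9:121642466-121642765, plus strand) 35.

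In the next pairs the peak lay over the start of 1 gene and came within 2.5 kb of the start of the other without touching it. Tmem151a and Yif1a on chromosome 19 are head-to-head, and Hes5 and Pank4 on chromosome 4 are in tandem.
Tmem151a: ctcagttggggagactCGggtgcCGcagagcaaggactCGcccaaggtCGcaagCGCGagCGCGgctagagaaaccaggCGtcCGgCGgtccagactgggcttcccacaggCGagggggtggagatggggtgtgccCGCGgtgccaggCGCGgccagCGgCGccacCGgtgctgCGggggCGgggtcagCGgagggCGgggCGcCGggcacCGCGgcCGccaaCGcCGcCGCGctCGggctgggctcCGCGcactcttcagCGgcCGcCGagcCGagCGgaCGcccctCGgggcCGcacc
Yif1a: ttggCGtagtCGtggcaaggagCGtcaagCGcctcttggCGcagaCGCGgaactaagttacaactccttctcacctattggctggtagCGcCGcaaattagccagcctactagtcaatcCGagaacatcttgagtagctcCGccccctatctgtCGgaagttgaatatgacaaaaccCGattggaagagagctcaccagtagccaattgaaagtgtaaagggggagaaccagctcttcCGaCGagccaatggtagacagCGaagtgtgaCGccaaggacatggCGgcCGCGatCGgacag
Hes5: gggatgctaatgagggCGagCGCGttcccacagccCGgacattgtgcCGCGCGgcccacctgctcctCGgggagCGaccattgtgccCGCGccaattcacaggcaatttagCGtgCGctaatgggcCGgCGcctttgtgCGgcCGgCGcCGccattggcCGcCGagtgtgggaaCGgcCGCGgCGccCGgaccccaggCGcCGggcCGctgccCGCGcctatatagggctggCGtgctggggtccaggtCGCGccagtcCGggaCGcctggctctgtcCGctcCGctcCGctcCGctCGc
Pank4: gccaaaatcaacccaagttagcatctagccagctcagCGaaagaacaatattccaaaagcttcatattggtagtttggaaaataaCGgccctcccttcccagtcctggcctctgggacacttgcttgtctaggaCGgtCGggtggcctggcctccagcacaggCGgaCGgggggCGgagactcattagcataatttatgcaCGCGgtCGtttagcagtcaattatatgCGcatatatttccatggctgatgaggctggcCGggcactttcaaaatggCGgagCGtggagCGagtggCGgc
The Tmem151a window (chr19:5085442-5085741, minus strand) holds 43 CG against 21 at Yif1a (chr19:5088288-5088587, plus strand), whose start is 2169 bp from the peak. The Hes5 window (chr4:154960673-154960972, plus strand) holds 41 CG against 16 at Pank4 (chr4:154963873-154964172, plus strand), whose start is 1619 bp away. In both pairs the start under the peak had the more CG, which was not so at every pair. Among the 12 head-to-head members with a listed start of only 1 gene inside, some went the other way. The start outside had the more CG at Maneal with Epha10, Mast1 with Rtbdn, Mto1 with Cgas, Rtn2 with Ppm1n and Tada2b with Ccdc96. At the others the start inside had the more. Most of these names were chosen after their values were seen.

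Not every start under a high-scoring member was rich in CG. Utf1, on chromosome 7, and Gad2, on chromosome 2, were the downstream genes in 2 of the 3 tandem pairs that scored 3100 or more.
Utf1: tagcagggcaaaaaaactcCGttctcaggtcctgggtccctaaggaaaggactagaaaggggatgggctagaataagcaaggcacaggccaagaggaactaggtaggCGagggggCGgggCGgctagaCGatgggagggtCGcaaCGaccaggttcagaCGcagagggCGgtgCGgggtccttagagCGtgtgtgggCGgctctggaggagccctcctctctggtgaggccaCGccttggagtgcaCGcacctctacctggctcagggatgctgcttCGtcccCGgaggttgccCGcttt
Gad2: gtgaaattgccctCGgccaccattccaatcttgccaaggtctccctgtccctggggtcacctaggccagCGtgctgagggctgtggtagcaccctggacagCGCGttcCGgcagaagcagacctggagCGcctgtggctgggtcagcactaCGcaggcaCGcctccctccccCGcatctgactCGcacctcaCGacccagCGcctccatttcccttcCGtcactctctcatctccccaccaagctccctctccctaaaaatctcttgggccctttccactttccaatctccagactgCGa
The Utf1 window (chr7:139943606-139943905, plus strand) holds 17 CG and the Gad2 window (chr2:22622077-22622376, plus strand) 14. The Gad2 count is near the median of all promoters, which was 13 CG over 21044 windows of 17273 genes. The Utf1 count lies between that median and the median of 20 CG at starts under shared peaks.

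Over all members, 166 promoter windows of 152 genes had their start inside the peak. Their CG count ran from 2 to 58 with a median of 20 (95% interval of the median 18 to 22), and their median G+C content was 63.5%. The windows of member genes whose start lay inside no peak numbered 288 and had a median of 14.5 CG (12 to 16). Starts under peaks of the same width at only 1 gene had a median of 23 CG (22 to 24, 1044 windows) and a G+C content of 66.0%. The starts under shared peaks thus held more CG than promoters in general, and their interval meets that of the starts under 1-gene peaks at 22.

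**Figure D1:**
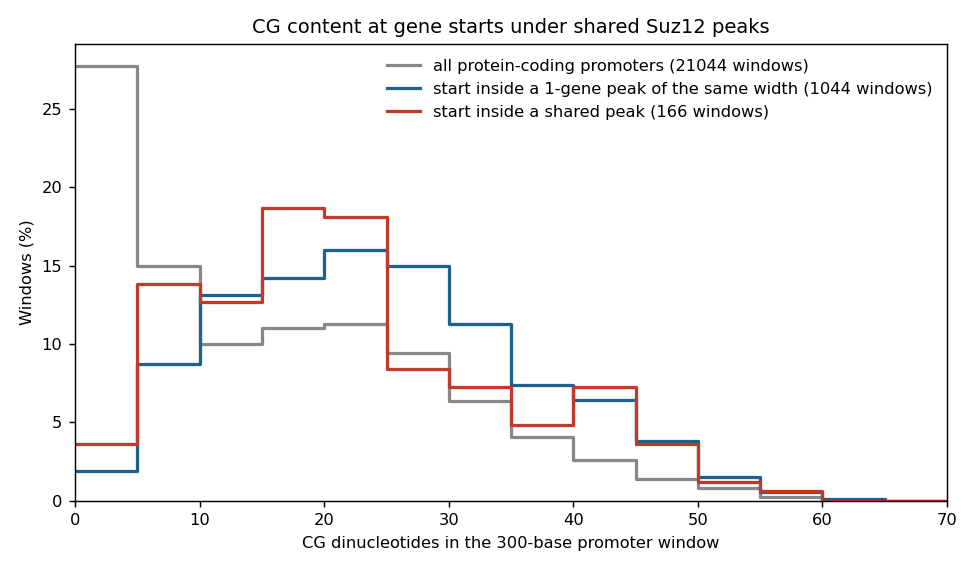
Number of CG dinucleotides per 300-base promoter window (x axis, classes of 5) against the percent of windows (y axis) for all protein-coding promoters (grey, 21044 windows), starts inside a 1-gene Suz12 peak of the same width (blue, 1044) and starts inside a shared peak (red, 166). The red and blue curves lie to the right of the grey one, with medians of 20, 23 and 13 CG for red, blue and grey.

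The members were not evenly spread over the chromosomes. Chromosome 7 held 38, chromosome 11 held 26, chromosome 2 held 23 and chromosome 4 held 22, while chromosome 14 held 2. As a share of each chromosome's peaks, chromosome 7 led with 14.7% of 258 and chromosome 14 was lowest with 2.11% of 95. The narrowest member was 1128 bp wide, the median member 2023 bp and the widest 4946 bp, and the authors' scores from 153.7 to 3155 with a median of 623 (95% interval of the median 553 to 767). Peaks of the same width at 1 gene had a median score of 663 (626 to 697) and a median width of 1955 bp, and those at no gene 540 (491 to 578) and 1783 bp. The scale of the score is not stated, and scores pile up at 3100, the value of 17 members, so a score above 3100 is not read as a stronger peak. Scores of 3100 or more were held by 6.90% of members, 6.17% of the 1-gene peaks and 3.87% of the peaks at no gene.

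**Figure D2:**
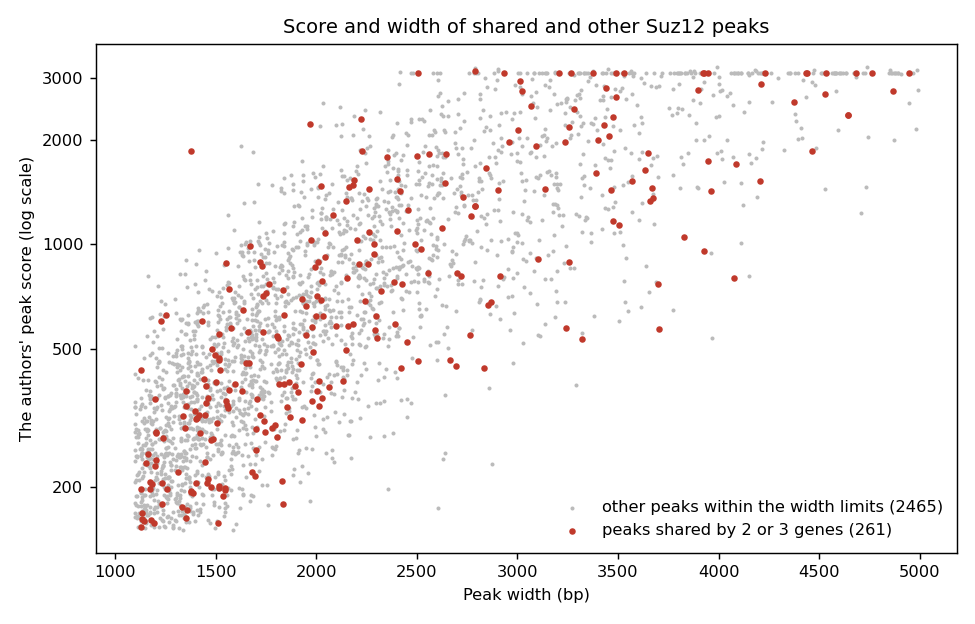
Width in bp (x axis) against the authors' score (y axis, log scale) for the 261 shared peaks (red) and the 2465 other peaks within the width limits (grey). The shared peaks lie throughout the cloud of the others, from 153.7 to the row of points at 3100.

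The limits of the rule cut through similar peaks. The narrowest members, of 1128 bp at Mpig6b and Ly6g6c and of 1129 bp at Dusp2 and Astl, stand beside excluded peaks of 1081 bp at Msantd2 and Esam and 1082 bp at Matn4 and Rbpjl. At the upper limit, the members of 4866 bp at Gm30191 and Grrp1 and of 4946 bp at Ddx31 and Barhl1 stand beside excluded peaks of 5093 bp at Zic1 and Zic4 and 5116 bp at Gbx2 and LOC102637806. The farthest second genes admitted were 2395 bp away (Hoxa3 beside a peak on Hoxa7) and 2455 bp away (Prr18 and Gm46592). The nearest left out were 2515 bp (Plxdc1 and Arl5c) and 2516 bp away (Usp43 and Cfap52). The second nearest gene end lay at a median of 725 bp from the peak, within 1 kb at 150 members, and under the peak itself at 78.

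Of the 239 members at exactly 2 genes, 163 lay at genes that do not overlap, 68 at genes that overlap in part and 8 at a gene nested in another. The median gap between the separate genes was 845 bp, between extremes of 8 and 4792 bp (95% interval of the median 667 to 1149) and quartiles of 371 and 1822.5 bp. It was at most 500 bp at 56 members and at most 1 kb at 90. The peak covered the whole gap at 28 of the 163 (17.2%, 11.7 to 23.9). Strand was known for both genes at 118 separate pairs, of which 62 (52.5%, 43.1 to 61.8) were tandem, 36 (30.5%, 22.4 to 39.7) tail-to-tail and 20 (16.9%, 10.7 to 24.96) head-to-head. The median gap was 934 bp in tandem pairs, 642.5 bp in head-to-head pairs and 623.5 bp in tail-to-tail pairs.

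To set these numbers beside the genome's own gene order, all neighbouring protein-coding pairs of known strand with a gap of at most 10 kb were counted. A member lay at 131 of these 5241 pairs (2.5%). By arrangement it lay at 24 of 1062 head-to-head pairs (2.26%), 65 of 2695 tandem pairs (2.41%) and 42 of 1484 tail-to-tail pairs (2.83%). Within the closest class, with gaps of at most 500 bp, head-to-head pairs held a member at 8 of 527 (1.52%), tandem pairs at 17 of 251 (6.77%) and tail-to-tail pairs at 18 of 271 (6.64%). In the class from 501 to 1000 bp the values were 6 of 41 (14.6%), 13 of 193 (6.74%) and 12 of 156 (7.69%). Head-to-head pairs were thus the lowest of the 3 arrangements in the closest class and the highest in the next, where they are few. The share falls at larger gaps partly by construction, since the distance and width limits leave fewer positions from which a peak can reach both genes. No member lay at any of the 1695 pairs more than 5 kb apart.

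**Figure D3:**
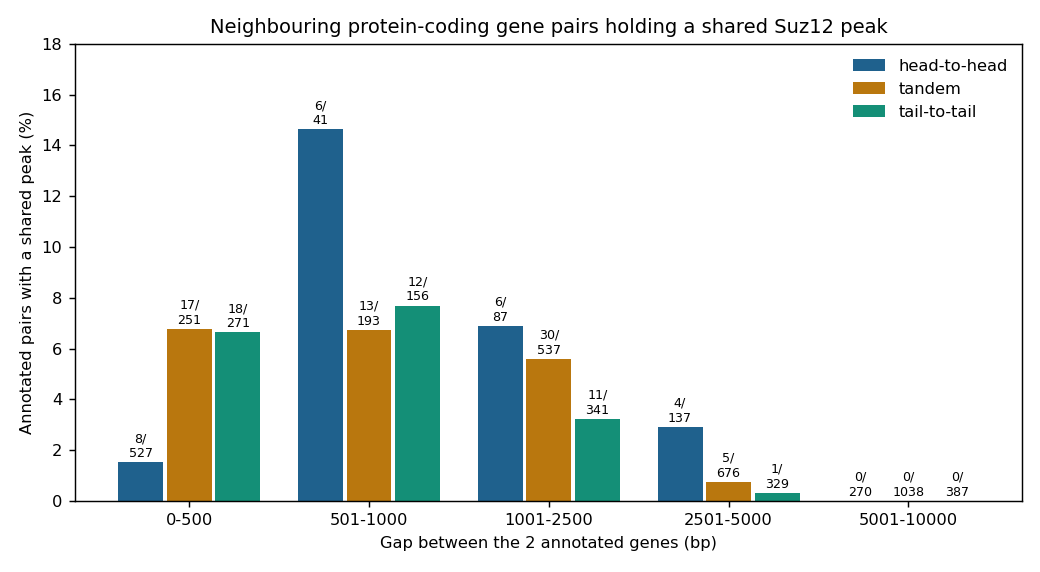
Percent of annotated neighbouring gene pairs that hold a shared peak (y axis) by the gap between the genes in bp (x axis) and by arrangement (bar colour), with the number of pairs holding one over all pairs above each bar. Head-to-head pairs stand at 1.52% for gaps up to 500 bp and at 14.6% for gaps of 501 to 1000 bp, and no bar rises above 0 beyond 5 kb.

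Among the 20 head-to-head members, 3 peaks covered a listed start of both genes, 12 of 1 gene and 5 of neither. By outer starts the counts were 6, 9 and 5. The highest score, 3100, belonged to the peak on chromosome 4 from 154138701 to 154142620 between Trp73, which encodes a transcription factor of the p53 family, and Wrap73, which encodes a WD-repeat protein of the centrosome. It spans the whole gap of 2478 bp and reaches 1175 bases into Trp73 and 267 bases into Wrap73. Between Cgas, the sensor of DNA in the cytosol, and Mto1, which modifies mitochondrial transfer RNA, the genes are 241 bp apart and a peak of score 2046 covered 1994 and 1219 bases of them. It holds the listed start of Cgas, while that of Mto1 is 3513 bp away. Duox2, an oxidase that makes hydrogen peroxide in the thyroid, and Duoxa2, its maturation factor, are 159 bp apart. The first of their peaks (score 1371) covered both listed starts with 2074 bases of Duox2 and 498 of Duoxa2. A second peak (score 667), also near Duoxa1, lay on 71.6% of Duoxa2 and covered no start.

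Lyzl4, which encodes a lysozyme-like protein, and Vipr1, a receptor of vasoactive intestinal peptide, are 594 bp apart, and the peak between them (score 1117) covered 1126 and 904 bases. Mast1 and Rtbdn (score 889) and Maneal and Epha10 (score 462), named after their values were seen, had both outer starts covered but only the listed starts of Rtbdn and Epha10. In the pair with the widest head-to-head gap, 3046 bp, the peak of score 1285 covered 31.0% of Tmem151a and no base of Yif1a, a gene of transport between the endoplasmic reticulum and the Golgi apparatus. The closest head-to-head genes, R3hdm4 and the kisspeptin receptor gene Kiss1r, are 21 bp apart. There the peak lay wholly within Kiss1r, 1258 bp past its listed start. A short head-to-head gap therefore did not always put the peak over the shared start region.

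In the 62 tandem members the peak lay more often on the downstream gene, whose start faces the gap. The downstream body was the more covered at 48 (77.4%, 65.0 to 87.1) and the upstream body at 14, with median covered lengths of 1388.5 and 0 bases. A listed start of the downstream gene was inside the peak at 43 of 62 (69.4%, 56.3 to 80.4) and one of the upstream gene at 6 (9.68%, 3.63 to 19.9). The outer start of the downstream gene was inside at 39 and the far end of the upstream gene at 16 (25.8%, 15.5 to 38.5), both of these at 10. The member with the highest score of all, 3155, is of this kind. It lies on chromosome 7 from 139943386 to 139946174, covers the whole of Utf1, a chromatin factor of undifferentiated embryonic stem cells, and ends 1846 bp short of Kndc1. On chromosome 2 from 22620567 to 22625099, a peak of score 3100 covered the start of Gad2, which makes the transmitter GABA, with 4085 bases, and no base of Myo3a, a myosin gene, 2315 bp away.

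At Hoxa10 and Hoxa11, homeobox genes 1250 bp apart, the peak of score 2647 covered the start of Hoxa10 with 2042 bases, the whole gap and the last 197 bases of Hoxa11. At Rgl3 and Ccdc151 it likewise covered the gap of 402 bp with 2173 and 705 bases on the genes (score 2446). Fgf11, a member of the fibroblast growth factor family, and Tmem102 carried a peak of 4645 bp over the start of Fgf11 and 94.5% of Tmem102. Grin2c, a subunit gene of the NMDA glutamate receptor, was covered over its start for 2501 bases, and its upstream neighbour Fdxr, a mitochondrial reductase, for 247 bases. These pairs show the peak running through the gap into both genes.

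The reverse tandem case also occurred. The peak at Grwd1 and Grin2d (score 3100, chromosome 7 from 45831838 to 45835044) covered 3162 bases at the far end of Grin2d, another NMDA receptor subunit, and stopped 844 bp short of Grwd1, a gene of ribosome assembly. At Hes5, a target of Notch signalling, the peak covered the whole gene, both start and end, and missed the downstream Pank4, a member of the pantothenate kinase family. At Hoxa3 and Hoxa7, 2555 bp apart, a peak of score 447 covered the start of Hoxa3 and a separate one of score 1167 covered all 2951 bases of Hoxa7. Here each homeobox gene had a peak of its own that came near the other.

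In tail-to-tail pairs the peak mostly lay on 1 body, with a median of 0 bases over the gap. Of 36 such members, 32 covered 1 body and 4 both, 22 had no listed start inside (25 no outer start), and 24 had no far end inside. The 14 with a listed start inside include short genes, whose start and far end lie close together. At Insm2, a zinc-finger factor gene of 3102 bp, the peak of score 3100 covered the start and 77.6% of the gene and lay 1564 bp from Ralgapa1. At Cldn7, which encodes a claudin of tight junctions, a peak of score 2950 covered 82.7% of the gene including its start, 874 bp from Elp5, a subunit gene of Elongator. At Drd4, the gene of a dopamine receptor, 70.5% was covered from the start on, and Deaf1 was 2037 bp away.

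The widest member, of 4946 bp with score 3100, lay wholly inside Barhl1, a homeobox gene of neurons, over 48.0% of its body. It ended 271 bp from the far end of Barhl1 and 2376 bp from Ddx31, an RNA helicase gene. One of the 2 listed starts of Barhl1 was inside the peak, and the outer start was 5088 bp away. Oxt and Avp, the genes of the hormones oxytocin and vasopressin, held 2 members in 1 tail-to-tail gap of 3565 bp. One of them (score 1432) covered 1376 bases, 54.3%, at the far end of Oxt and held its listed start, while the outer start was 1160 bp away. The other (score 1133) covered 1605 bases, 81.5%, at the far end of Avp. It ended 364 bp short of the start of Avp. At the narrowest gap of all, 8 bp between Cdhr2 and Gprin1, the peak lay wholly within Gprin1.

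**Figure D4:**
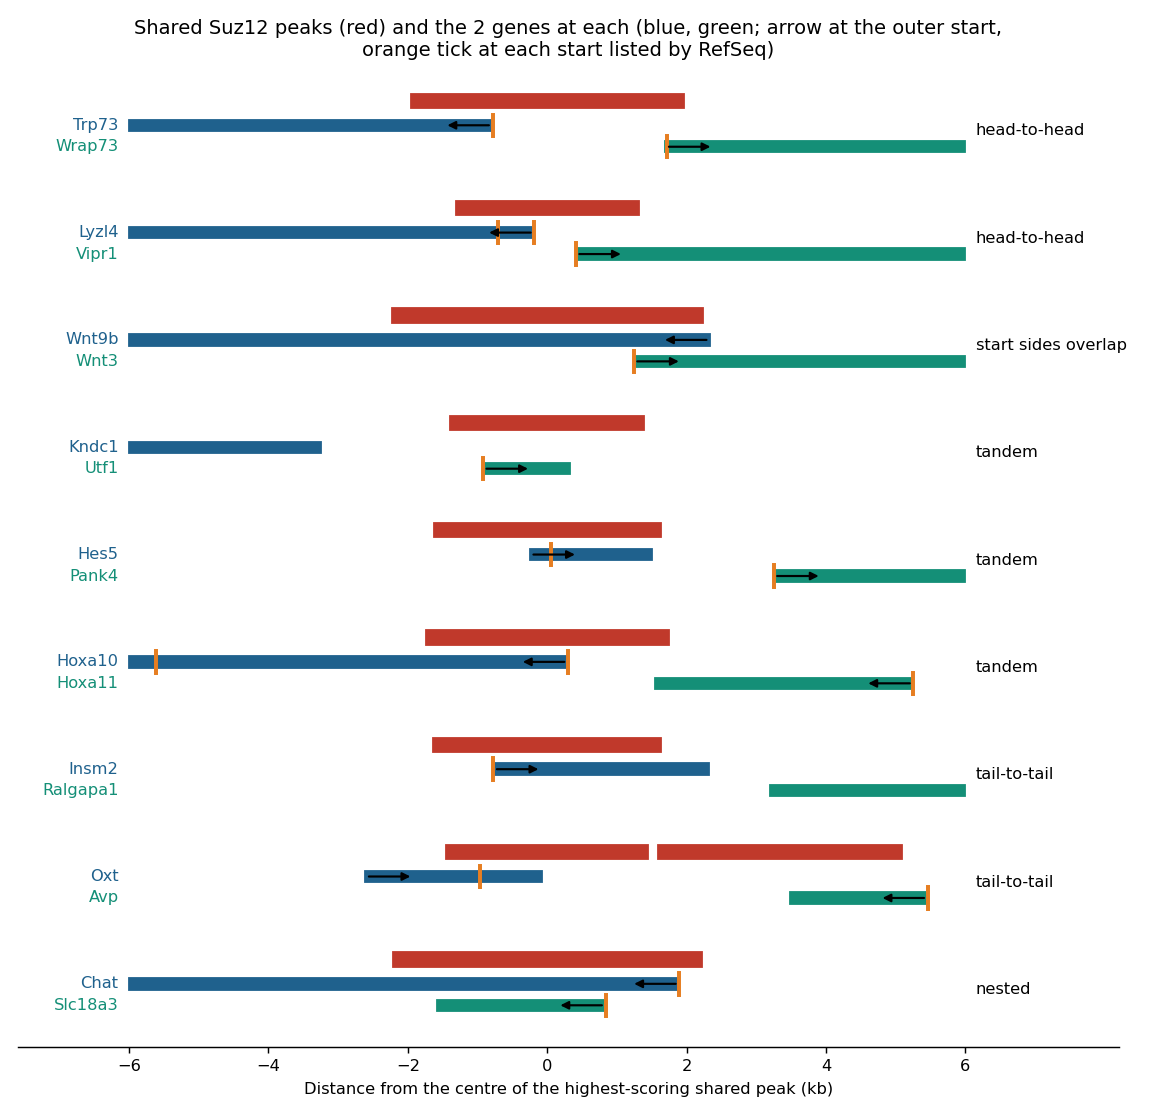
Maps of 9 shared loci, with distance from the centre of the highest-scoring shared peak in kb (x axis), peaks in red, the genes of each pair in blue and green, an arrow at each outer start and an orange tick at each listed start within view. The peak spans both listed starts at Trp73/Wrap73 and Lyzl4/Vipr1, covers all of Utf1, Hes5 and Slc18a3, and lies at the far ends of Oxt and Avp.

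Overlapping and nested genes were more often covered on both bodies than separate ones. This is partly by construction, since a peak on the shared stretch covers both bodies. Both were covered at 51 of the 68 members at partly overlapping pairs and at 6 of the 8 at nested pairs. Among the 76 members at overlapping or nested pairs, 24 lay where the start sides of the spans overlap, 5 where the far ends do, 6 at genes on the same strand, 8 at nested genes and 33 at pairs of unknown strand. Where start sides overlap, the median shared stretch was 803 bp, the shortest 105 bp and the longest 3087 bp. The peak covered both bodies at 21 of 24. It covered a listed start of both genes at 11, of 1 gene at 9 and of neither at 4, and both outer starts at 16. Of all annotated pairs, a member lay at 27 of 458 with overlapping start sides (5.90%) and at 8 of 522 with overlapping far ends (1.53%).

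Wnt9b and Wnt3, which encode Wnt ligands, overlap by 1098 bp at the start sides of their spans. The peak on chromosome 11 from 103770705 to 103775166 (score 1853) lay wholly in Wnt9b, over 9.31% of it, covered the listed start of Wnt3 with 992 bases and ended 106 bp short of the outer start of Wnt9b. The listed start of Wnt9b is 20884 bp from the peak. Zic1 and Zic4, zinc-finger factors of the developing brain, overlap by 138 bp. Their member (score 881) lay inside the Zic4 span, 918 bp before the listed start of Zic4 and 736 bp from that of Zic1, beside the wider peak at the same pair that the width limit excludes. At Foxa1, a forkhead factor of endoderm, the peak (score 909) lay 2153 bp before the listed start and 235 bp before the outer start, wholly in the overlapping gene Ttc6.

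The cholinergic locus is the high-scoring nested case. Slc18a3, the vesicular acetylcholine transporter, is a gene of 2414 bp inside Chat, which encodes the enzyme that makes acetylcholine. The peak on chromosome 14 from 32461795 to 32466234 (score 3100) covered all of Slc18a3, both starts, and 7.13% of Chat. At T, the Brachyury gene of mesoderm, a peak of score 3100 covered the start, 22.6% of the gene and all of LOC115486424, which overlaps it on the same strand. Nested members as a class had a low median score of 281, with a range from 175 to 3100.

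In all 261 members, 3 covered no gene body, 166 covered 1, 91 covered 2 and 1 covered 3. The member with all 3 bodies covered had score 3100 and lay over 52.7% of Tmem210, all of Lrrc26, which encodes a regulator of potassium channels, and 7.64% of Grin1, the obligatory NMDA receptor subunit, at its far end. At Trim54, Ucn and Mpv17 the peak (score 3100) covered all of Ucn, the gene of the peptide urocortin, and 9.34% of Trim54. At Phpt1, Ajm1 and Rabl6 it covered 90.1% of Ajm1 and no base of the others. At Bmi1, Gm46725 and Spag6 it covered 79.1% of the predicted gene and lay 1549 bp from the far end of Bmi1, itself a Polycomb gene. Another member (score 1853), named after its values were seen, lay inside Bmi1, 581 bp past its start. At Hoxd13, Hoxd12 and Hoxd11 the peak (score 2886) covered Hoxd12 whole and neither neighbour.

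Seen from the genes, most bodies near a member were touched over a small part or not at all. Of 544 placements of a gene at a member, 193 (35.5%, 31.5 to 39.7) had no base covered, and the rest had a median of 15.3% (12.5 to 17.97) covered. In the 239 members at 2 genes the peak covered both bodies at 85 (35.6%, 29.5 to 42.0), 1 body at 151 (63.2%, 56.7 to 69.3) and neither at 3. Those 3 were Fgf8 and Npm3, Foxf1 and Mthfsd, and Cryba2 and Cfap65. Fgf8, a signal of the early embryo, and Npm3 also have the widest gap of all, 4792 bp, with a peak of 2010 bp between them, 1756 bp from Fgf8 and 1028 bp from Npm3.

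A whole gene lay under the peak at 18 members, whose genes were 1601.5 bp long at the median, 567 bp at the least and 2951 bp at the most. Among them were the homeobox genes Hoxa7, Hoxd12 and Gsc2, the basic helix-loop-helix genes Hes5 and Ascl5, and Utf1. Others encode the peptides Ucn and Insl3, the platelet glycoprotein Gp1bb, the claudin Cldn5 of vessel walls, the transporter Slc18a3 and the imprinted growth regulator Phlda2. The remaining 6 were Lrrc26, Hpdl, Mymx, a fusion peptide of muscle cells, Fam229a, LOC115486424 and LOC115488350. Cldn5, Insl3, Hpdl, Mymx and Gsc2 were named after their values were seen, to complete the count. Genes at members were shorter than genes at large, with median lengths of 10672 against 17330 bp. The rule asks for close neighbours and sets no limit on gene length, and the reason for the difference was not tested.

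**Figure D5:**
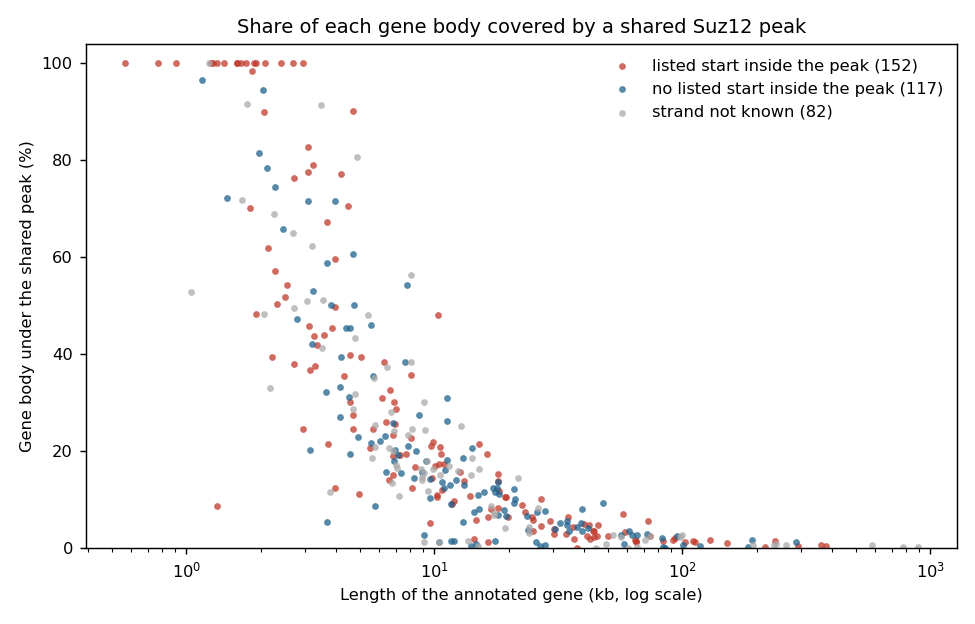
Length of each gene (x axis, kb, log scale) against the percent of its body under a shared peak (y axis), for the 351 placements with any base covered, coloured by whether a listed start lies inside the peak (red, 152), none does (blue, 117) or the strand is not known (grey, 82). The 18 genes at 100% are all shorter than 3 kb, and the share covered falls with gene length because peak width is limited to 5 kb.

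Strand was known for every gene at 174 members. A listed start lay inside the peak at 120 of them (69.0%, 61.5 to 75.7), from 1 gene at 102 and from 2 genes at 18, and none at 54. An outer start lay inside at 108 (62.1%, 54.4 to 69.3), 1 at 83 and 2 at 25. A far end lay inside at 47 (27.0%, 20.6 to 34.3). Of the 18 with listed starts of 2 genes, 11 were pairs with overlapping start sides and 3 were head-to-head.

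The gene families at shared peaks were described with 23 lists based on gene symbols. A shared peak lay at 31 of 497 developmental transcription factor genes (6.24%, 4.28 to 8.74), against 506 of 21627 genes in all (2.34%, 2.14 to 2.55). Homeobox genes had one at 17 of 193 (8.81%), among them Hoxa3, Hoxa7, Hoxa10, Hoxa11, Hoxc6, Hoxc8, Hoxd11, Hoxd12 and Hoxd13. Signalling genes had one at 16 of 287 (5.57%, 3.22 to 8.90), including Wnt3, Wnt9b, Fgf8, Fgf11 and Tgfb1. Channels, receptors and transporters had one at 34 of 716 (4.75%, 3.31 to 6.57). Within these, transmitter receptors stood at 13 of 136 (9.56%), with the NMDA receptor genes Grin1, Grin2c, Grin2d and Grin3b and the nicotinic receptor genes Chrna3 and Chrnb4 among them. Some of the family members listed here were named after their values were seen.

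The comparison lists of zinc-finger Zfp, ribosomal, mitochondrial, translation, histone and olfactory receptor genes had a shared peak at 13 of 2071 (0.628%, 0.335 to 1.07). None of the 205 genes on the mitochondrial list and no histone gene of 101 had one, and 1 olfactory receptor gene of 1107 did. The mitochondrial list is based on symbols and leaves out Fdxr and Mto1, which are at members. The same lists differ at peaks of any kind too, with a peak at an end in 65.4% of developmental transcription factor genes, 11.7% of all genes and 1.59% of the comparison lists. It was 45.6% for signalling genes, 29.3% for channels, receptors and transporters, and 50.0% for transmitter receptors. Among genes with any peak at an end, a shared one lay at 31 of 325 developmental transcription factor genes. The counts were 16 of 131 signalling genes, 34 of 210 channels, receptors and transporters, and 13 of 68 transmitter receptors. Over all genes they were 506 of 2540, and on the comparison lists 13 of 33. The shared counts keep the width limits, while the counts of any peak do not. Without the limits a shared peak lay at 11.1% of developmental transcription factor genes, against 6.24% with them. That value is not given here for all genes, so these counts are not read as a difference between the lists.

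Where a peak was shared by a listed gene and an unlisted one, it mostly lay on the listed gene. Of the 239 members at 2 genes, 155 had no gene on the developmental, signalling, channel, surface or neuronal lists, 69 had 1 and 15 had 2. At the 69 with 1 listed gene, the listed body was the more covered at 54 (78.3%, 66.7 to 87.3) and the other body at 12. The median covered length was 1708 bases over the listed gene and 0 over the other. Hes5 with Pank4, Gad2 with Myo3a, Barhl1 with Ddx31 and Insm2 with Ralgapa1 are of this kind. Strand was known for both genes at 39 of the 69. There the outer start of the gene on a list was inside at 18 (46.2%, 30.1 to 62.8). That of the other gene was inside at 11 (28.2%, 15.0 to 44.9), and these intervals overlap. Genes of the same list shared a peak in 17 pairs at 15 members, of which Hoxd13, Hoxd12 and Hoxd11 gave 3 pairs at 1 peak.

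Long non-coding RNA genes had an end within 2.5 kb of 31 members (11.9%, 8.21 to 16.4), against 421 of 1767 peaks of the same width at 1 gene (23.8%, 21.9 to 25.9). MicroRNA genes had one at 5 members (1.92%, 0.625 to 4.41), against 15 of the 1767 (0.849%, 0.476 to 1.40), and 4 microRNA genes at 3 of these lay inside the peak. A mature form that RefSeq lists for each of 2 of them is shown with the seed, bases 2 to 8, in capitals, because these genes mark members that hold a non-coding gene as well as the pair.
miR-219a-5p: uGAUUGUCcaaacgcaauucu
miR-375-5p: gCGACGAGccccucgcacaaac
Mir219a-2, known from oligodendrocytes, lies within the peak on chromosome 2 from 29844735 to 29846756 that spans the gap of 97 bp between Urm1 and Cercam (score 690), with Mir219b on the other strand. Mir375, a gene known from pancreatic islets, lies in the peak between Cryba2 and Cfap65 (score 1031), where no protein-coding body is covered. The 5p form shown is the only mature form listed for it here, and need not be the form known from islets. Mir1900 lies in the peak at Icam4 and Icam5, genes of intercellular adhesion molecules.

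Some neighbours held more than 1 shared peak. Of 291 distinct gene pairs at members, 14 had 2 members each, and 38 genes were at 2 members. The next examples were named after their values were seen. At Pcdhb21 and Pcdhb22, protocadherin genes 1989 bp apart, a peak of score 297 covered 49.6% of the former and a peak of score 294 covered 51.0% of the latter. At Paqr4 and Kremen2, 299 bp apart, the peak of score 588 covered 50.2% of Kremen2, a receptor of Wnt antagonists, and the peak of score 235 covered 24.5% of Paqr4. In both of these pairs either gene carried a peak of its own.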

How the data were processed

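Suz12 was mapped in 1 wild-type library at 72 h. The submitters' processing notes name Bowtie, MACS and build GRCm38 (mm10). Not given in the sources used here are versions, parameters, control and pooling. The authors' deposited list gives positions and a score per peak, used only to rank, describe and filter, on a scale that is not stated. It holds no reads, so depth is unknown.

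Peaks were placed on 21627 protein-coding genes of a RefSeq table of the same build, by the outer ends. Strand and listed starts came from RefSeq promoter windows, which were at hand for 17273 of these genes and 396 of the 506 at members. There were none for chromosome 18, so its 7 members enter no count by strand, start or CG. Outer starts are the start-side ends of the spans. Exons, introns and UTRs were not used here. Python 3.11.15, pandas 2.3.3, numpy 2.4.6 and scipy 1.17.1 were used. Placement was checked on simulated separate pairs of known strand whose whole gap the peak covered. Overlapping genes, nested genes and genes of unknown strand were not part of that check. Intervals are exact binomial or from order statistics at 95%, cover counting error only and treat peaks as independent. Members and lists were chosen with earlier results of these data known. Named were the members highest in score, widest, narrowest, at extreme gaps, at most genes, covering most of 2 bodies, at the limits, and up to 4 by score of each list. Distance, width, score and gene set were varied.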

Additional observations from a re-analysis of the deposited data

How the results depend on the processing

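Over 13 settings, 62 alternative values were computed, of which 40 moved by less than their counting interval (or, for numbers of members, less than 1.5 times), 22 moved more, and none changed sign, since all are counts, shares or medians. The distance to a gene end mattered most. Within 1 kb there were 150 members, with a median gap of 402 bp, both bodies covered at 58.6% and a shared peak at 3.22% of developmental transcription factor genes. Within 5 kb the values were 452, 2102 bp, 20.3% and 11.1%. Where the peak had to cover the ends they were 78, 394 bp, 100% and 1.61%, with 27.3% of pairs head-to-head, an outer start inside at 89.1% and a median score of 837. Keeping peaks at or above the median score of all peaks left 142 members, with a median gap of 1230 bp and a median score of 1363. Without the width limit 11.1% of developmental transcription factor genes had a shared peak. Counting starts only, which also drops every gene of unknown strand, gave 70 members, and genes of any kind 753. Asking for 10% of each body left both covered at 8.37%. Leaving out predicted genes moved no value past these limits. Added after seeing the data, leaving out LOC symbols too, or taking listed in place of outer starts (69.0% of members with 1 inside, against 62.1%), also moved no value past these limits. No paired analysis was possible, because only 1 of the 2 libraries had a peak list here. The 2 also differ in genotype and time, and the results come from no test. The unknown depth limits what the absence of a peak can show, and unknown strands limit the counts by arrangement.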
